A study of Mus musculus with 6 samples.

Results

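Foxa1, Foxa2, Foxa3, Onecut1, Onecut2, Cebpa, Cebpb and Prox1 encode transcription factors that set up or maintain hepatocyte identity, and their liver transcript levels were compared between B6.C3H-6T and C57BL/6J mice. They were taken by symbol from the probe sets that the platform annotation pairs with 1 gene only, which gave 14 probe sets for all 8 genes, out of 18194 genes and 45037 probe sets measured. The mice studied were 3 B6.C3H-6T females of 8 weeks, from a congenic strain on the C57BL/6J background, which the submitters call low in serum IGF-1, whose introduced C3H DNA is known to lie on chromosome 6. They were set against 3 C57BL/6J females of the same age. All 6 mice ate chow, 1 mouse gave 1 Affymetrix array, and no treatment or engineered allele was given for either strain. None of the 8 genes lies on chromosome 6: Cebpb and Foxa2 are on chromosome 2, Cebpa and Foxa3 on chromosome 7, and Prox1, Onecut1, Foxa1 and Onecut2 on chromosomes 1, 9, 12 and 18.

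FOXA proteins are forkhead factors that open compact chromatin at liver enhancers, and FOXA1 and FOXA2 together are needed for liver to form in the mouse embryo. ONECUT1, also called HNF6, binds through a cut domain and a homeodomain, acts in bile duct and hepatocyte development, and is known to bind the Foxa2 promoter; in rat liver its transcript is raised by growth hormone. C/EBP alpha and C/EBP beta are leucine zipper factors of hepatic metabolism and the acute phase response, and PROX1 is a homeobox factor that hepatocytes share with lymphatic endothelium, and in hepatocytes it represses through nuclear receptors such as LRH-1 and HNF4 alpha.

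The sequence before the start sites of the genes is shown first for the 3 members whose levels did not overlap between the strains. Promoters from RefSeq (GRCm38.p6) were matched for 7 of the 8 members, 10 start sites in all, and the 250 bases before each were read. Foxa2 has 3 start sites in the table, and the stretch before the first one listed is shown, chr2:148046970-148047219 on the minus strand, the Foxa3 stretch is chr7:19023540-19023789 on the minus strand and the Onecut1 stretch is chr9:74861671-74861920 on the plus strand. Each runs 5′ to 3′ and ends at the base before the start site, and capitals mark a match to one of the motifs searched.
Foxa2: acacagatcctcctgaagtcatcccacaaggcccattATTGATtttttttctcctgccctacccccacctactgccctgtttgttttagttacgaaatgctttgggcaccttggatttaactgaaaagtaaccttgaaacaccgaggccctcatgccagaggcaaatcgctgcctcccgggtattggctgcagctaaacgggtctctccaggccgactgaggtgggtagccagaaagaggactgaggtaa
Foxa3: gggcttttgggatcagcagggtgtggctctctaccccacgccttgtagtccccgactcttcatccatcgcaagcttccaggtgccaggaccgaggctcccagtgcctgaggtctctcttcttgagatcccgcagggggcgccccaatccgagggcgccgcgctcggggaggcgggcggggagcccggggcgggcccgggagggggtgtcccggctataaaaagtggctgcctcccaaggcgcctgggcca
Onecut1: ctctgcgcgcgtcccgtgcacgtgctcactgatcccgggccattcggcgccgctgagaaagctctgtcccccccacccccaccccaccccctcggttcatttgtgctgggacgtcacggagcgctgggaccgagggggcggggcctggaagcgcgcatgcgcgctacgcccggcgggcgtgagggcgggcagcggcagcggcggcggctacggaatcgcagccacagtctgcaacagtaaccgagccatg

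Both strands were searched for the forkhead words TGTTTAC or TGTTTGC or TATTTAC, for the cut homeodomain word ATTGAT and for the C/EBP word TTGCNNAA. In all 10 stretches there were 3 matches, none overlapping another. The Foxa2 stretch shown, 1 of 3 for that gene, holds ATTGAT from 213 to 208 bases before the start, a word found in 6.72% of the 32851 promoters of the table; the other two Foxa2 stretches hold none of the words searched. The Foxa1 stretch holds TGTTTAC, here on the other strand, a word found in 3.17% of promoters with both strands searched. The second of the 2 start sites of Prox1 holds TGTTTGC, as do 4.30% of promoters, while the first holds none of the words. These shares are per promoter, and a gene with several start sites has several windows in which a word can occur. TATTTAC and TTGCNNAA, present in 2.73% and 9.56% of promoters, were not found in these windows. The 30 bases around the Foxa1 match lie at chr12:57546234-57546263 and those around the Prox1 match at chr1:190169617-190169646, both on the minus strand.
Foxa1: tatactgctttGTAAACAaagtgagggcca
Prox1: tatttgcttgcTGTTTGCatacctttcact
A match is a description of the letters, and binding was not measured.

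The arrays were alike. Their medians ran from 6.07 to 6.11 on the log2 scale and correlations between arrays from 0.993 to 0.997 across all probe sets of an array pair, a description only. B6.C3H-6T replicate 3 correlated with its own strain at 0.9962 on average and with C57BL/6J at 0.9964. The 3′ minus 5′ signal of Actb, a measure of RNA quality, averaged 0.60 ± 0.09 in B6.C3H-6T and 0.60 ± 0.01 in C57BL/6J (SD, n = 3 each, two-sided exact permutation p = 1). B6.C3H-6T replicate 2 stood farthest out on the first principal component of all probe sets, at 27.3, against 2.3 to 11.8 for the other mice of its strain and -16.7 to -10.3 for C57BL/6J. It gave the lowest or highest of the 6 values for 75.0% of the 8 members and 37.5% of all genes, so each member's difference was also computed without it. The number of arrays limits the precision.

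The question of the comparison was whether the liver identity factors differ between the strains. In bulk liver, fewer cells of a type and less RNA per cell cannot be told apart. The members went both ways, 4 higher and 4 lower in B6.C3H-6T, with a median log2 difference of -0.04 against 0.02 over all genes, of which 56.1% were higher and 43.9% lower. None of the 8 passed at an adjusted p under 0.05 (limma, Benjamini-Hochberg over 18194 genes, lowest adjusted p = 0.162 and highest 0.849), where 0.0715% of all genes passed, 0.011% higher and 0.0605% lower. At an unadjusted p under 0.05 in limma there were 5 of 8 (62.5%), Foxa2, Onecut1 and Cebpb higher and Foxa3 and Prox1 lower, against 12.1% of all genes. The strains did not overlap at 3 of 8 members (37.5%), Foxa2, Foxa3 and Onecut1, against 17.8% of all genes, 10.3% higher and 7.49% lower. The members were chosen with earlier results of these data known, so their shares beside those of all genes are a description only. Of the 14 probe sets, 0 passed over all probe sets in limma, where 0.0577% did, 7 had an unadjusted p under 0.05, against 10.6%, and 3 did not overlap, against 16%. Trended and robust variances and variances that were not moderated also called 0 of the 8.

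**Figure D1:**
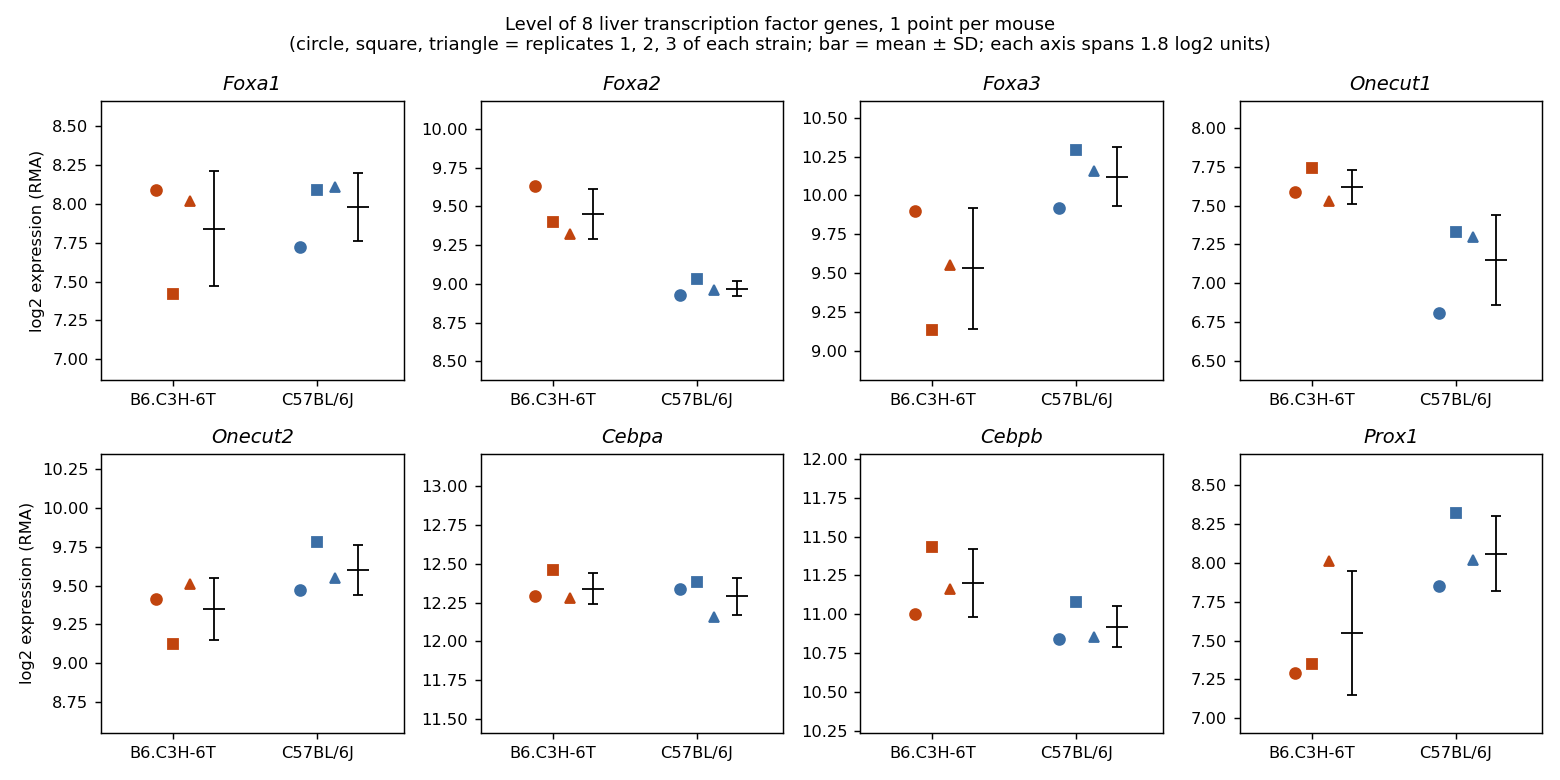
Log2 RMA expression of the brightest probe set of each gene, 1 point per mouse, with B6.C3H-6T at the left and C57BL/6J at the right of each panel and bars for mean ± SD (n = 3). Foxa2 and Onecut1 lie wholly higher and Foxa3 wholly lower in B6.C3H-6T, while the other 5 genes overlap between the strains.

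Foxa2, a forkhead gene that in adult mouse liver acts in bile acid and lipid metabolism, was the member with the smallest p, 47th of 18194 genes. Its probe set read 9.63, 9.40 and 9.32 (log2 expression) in B6.C3H-6T replicates 1 to 3, against 8.93, 9.03 and 8.96 in C57BL/6J. All B6.C3H-6T mice were above all C57BL/6J mice, and the C57BL/6J mice lay within 0.10 of each other. The means were 9.45 ± 0.16 in B6.C3H-6T and 8.97 ± 0.05 in C57BL/6J (SD, n = 3 each). The log2 difference was 0.47 ± 0.09 (SE), 1.39-fold, with a 95% interval of 0.28 to 0.67 (limma adjusted p = 0.162; two-sided exact permutation p = 0.1, the smallest that 3 against 3 mice can give). Only 1.02% of all genes had a difference of that size in either direction. It ran from 0.38 to 0.54 without 1 array, with adjusted p from 0.122 to 0.453. Foxa2 has no other probe set here, so the value rests on 1 probe set. The same holds for Foxa1, Foxa3 and Cebpa.

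Foxa3, the third FOXA gene, which in the mouse sustains the glucose transporter gene Slc2a2 during fasting, went the other way. It read 9.90, 9.13 and 9.55 in B6.C3H-6T, against 9.92, 10.29 and 10.16 in C57BL/6J. The groups did not overlap, but B6.C3H-6T replicate 1 lay 0.02 below C57BL/6J replicate 1, and B6.C3H-6T replicate 2 was the lowest. The log2 difference was -0.60 ± 0.18, a ratio of 0.661, with a 95% interval of -1.0 to -0.20 (limma adjusted p = 0.287; exact permutation p = 0.1). Without B6.C3H-6T replicate 2 it was -0.40.

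Foxa1, the closest relative of Foxa2 in sequence and function, overlapped between the strains. Its values were 8.09, 7.42 and 8.02 in B6.C3H-6T, against 7.72, 8.09 and 8.11 in C57BL/6J, and 1 mouse of each strain stood below the other 4. The log2 difference of -0.14 ± 0.18 (limma adjusted p = 0.789, 95% interval -0.53 to 0.26) became 0.08 without B6.C3H-6T replicate 2, so its direction rested on that mouse.

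Onecut1 was higher in B6.C3H-6T at both of its probe sets. The brighter read 7.59, 7.74 and 7.53 in B6.C3H-6T, against 6.81, 7.33 and 7.30 in C57BL/6J. The groups did not overlap, and C57BL/6J replicate 1 was low within its strain. The log2 difference was 0.47 ± 0.13, 1.39-fold, with a 95% interval of 0.17 to 0.77 (limma adjusted p = 0.274; exact permutation p = 0.1), and 0.30 without C57BL/6J replicate 1. The dimmer read 5.62, 6.02 and 5.91 in B6.C3H-6T, against 5.44, 5.63 and 5.89 in C57BL/6J, which overlap, with a difference of 0.20 ± 0.13. The mean of both gave 0.33 (limma adjusted p = 0.356).

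Onecut2, the paralogue of Onecut1, was lower at all 3 of its probe sets, with differences of -0.25 ± 0.11, -0.18 ± 0.10 and -0.24 ± 0.10. The brightest read 9.41, 9.12 and 9.51 in B6.C3H-6T, against 9.47, 9.78 and 9.55 in C57BL/6J. The strains overlapped at each of the 3 probe sets, with B6.C3H-6T replicate 2 lowest at each. The limma adjusted p was 0.420, with a 95% interval of -0.51 to 0.01, and without that mouse the difference was -0.14. Foxa1, Foxa3 and Onecut2 shared an order of mice within strains: replicate 2 was the lowest B6.C3H-6T mouse and replicate 1 the lowest C57BL/6J mouse for all of these genes.

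Cebpa, the gene of a factor that hepatocytes need for glycogen storage and glucose production at birth, was nearly level. It read 12.29, 12.46 and 12.28 in B6.C3H-6T, against 12.34, 12.38 and 12.16 in C57BL/6J, with ranges that overlap in part. The log2 difference was 0.05 ± 0.08 (limma adjusted p = 0.849), and its 95% interval, -0.14 to 0.24, is the range of differences that these mice leave possible. It became -0.01 without B6.C3H-6T replicate 2 and -0.02 without C57BL/6J replicate 3. Cebpb, induced in acute phase and regenerating liver, read 11.0, 11.43 and 11.16 in B6.C3H-6T, against 10.84, 11.08 and 10.85 in C57BL/6J. Only B6.C3H-6T replicate 1 fell inside the C57BL/6J range. The log2 difference was 0.28 ± 0.11 (limma adjusted p = 0.389) and 0.20 ± 0.13 at its second probe set, and 0.16 without B6.C3H-6T replicate 2.

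Prox1 was lower at all 3 of its probe sets, by differences of -0.51 ± 0.19, -0.31 ± 0.13 and -0.45 ± 0.20. The brightest read 7.29, 7.35 and 8.01 in B6.C3H-6T, against 7.85, 8.32 and 8.02 in C57BL/6J. Replicates 1 and 2 of B6.C3H-6T were below every C57BL/6J mouse at each probe set, whereas replicate 3 lay inside the C57BL/6J range at each. The limma adjusted p was 0.354, with a 95% interval of -0.94 to -0.09, and the difference was -0.75 without B6.C3H-6T replicate 3 and -0.38 without replicate 1.

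**Figure D2:**
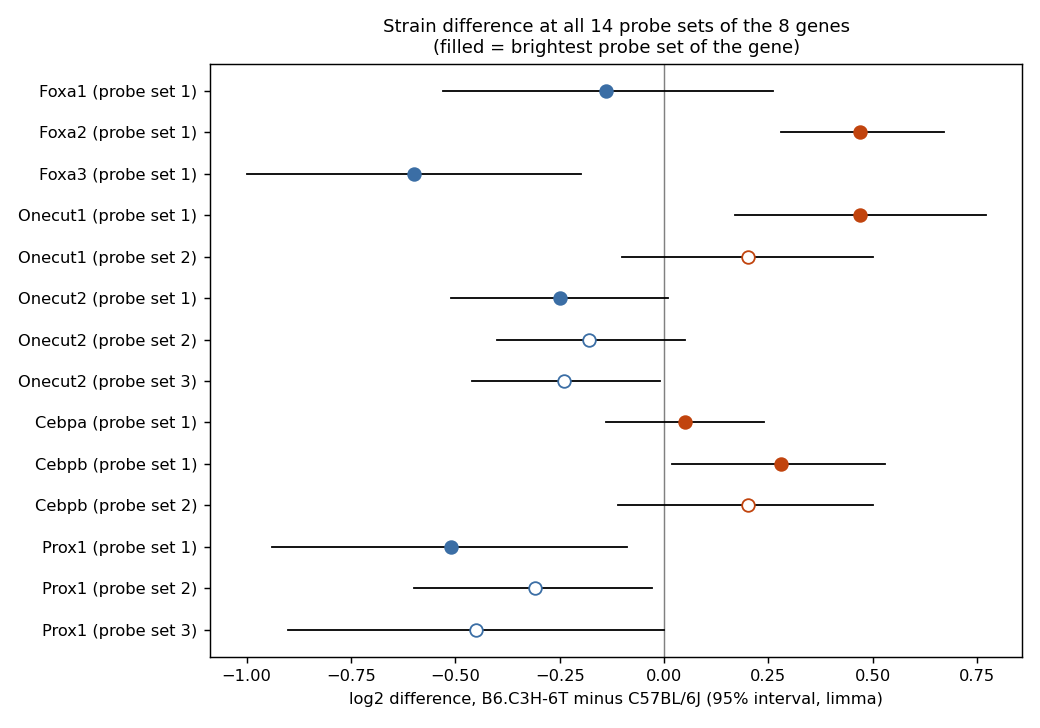
Log2 difference (B6.C3H-6T minus C57BL/6J) with its 95% limma interval at each of the 14 probe sets, filled where the probe set is the brightest of its gene. Probe sets of 1 gene lie on the same side of 0, for Onecut1, Onecut2, Cebpb and Prox1 alike.

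Foxa2 was then set against each other member within an array, which removes any shift common to the array; only the strain difference of such a value has a meaning, since probe sets differ in brightness. Foxa2 minus Foxa3 was -0.27, 0.27 and -0.23 in B6.C3H-6T, against -0.99, -1.27 and -1.19 in C57BL/6J, and the groups lay far apart. That difference of 1.07 was the widest of 7 such comparisons and ran from 0.90 to 1.17 without 1 array. Foxa2 minus Prox1 differed by 0.99, minus Onecut2 by 0.73, minus Foxa1 by 0.61 and minus Cebpa by 0.43, all with no overlap between the strains. For each of these 5 the two-sided exact permutation p was 0.1, the smallest possible, and 0.14 after Benjamini-Hochberg adjustment over the 7, so none could pass. Foxa2 by itself lay apart between the strains, and each of these values carries that gap. How often Foxa2 minus any other gene would lie apart was not computed. Against Cebpb the difference was 0.20 (exact permutation p = 0.4) and 0.01 without B6.C3H-6T replicate 1. Against Onecut1 at its brighter probe set it was 0.00 (exact permutation p = 0.9, and -0.10 to 0.15 without 1 array), the pair with the same log2 difference between the strains. Against the mean of both Onecut1 probe sets it was 0.14 (exact permutation p = 0.6).

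**Figure D3:**
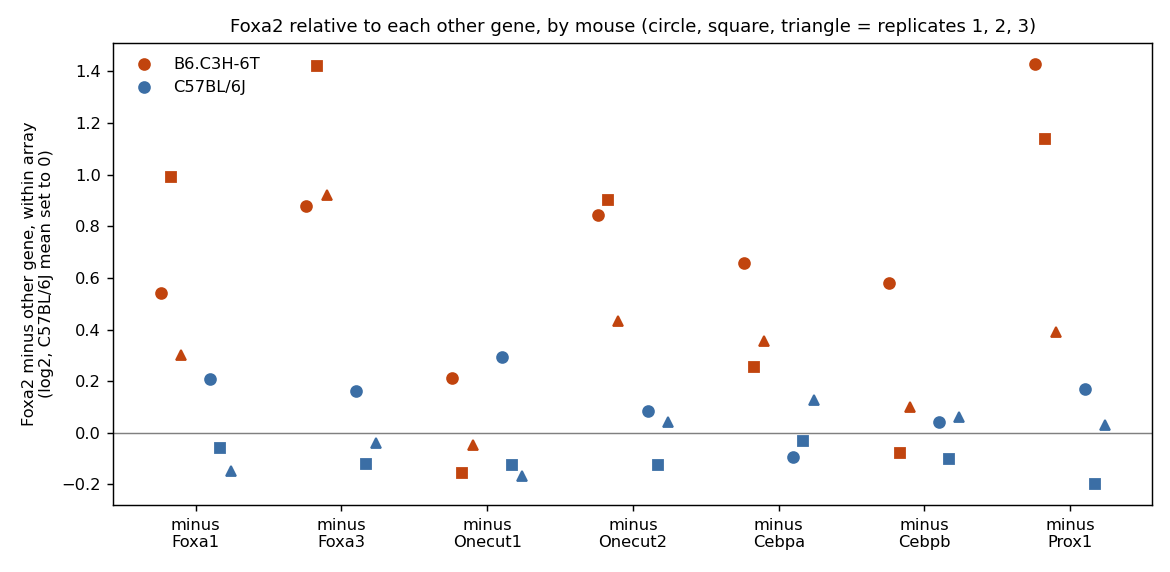
Foxa2 minus each other gene within an array (log2, with the C57BL/6J mean of each pair set to 0), 1 point per mouse, B6.C3H-6T left of C57BL/6J. The strains lie apart for Foxa1, Foxa3, Onecut2, Cebpa and Prox1 and overlap for Onecut1 and Cebpb.

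The genes whose pattern over the 6 mice was most like that of Foxa2 were sought among 1905 genes with a mean of at least 7 and an SD of at least 0.15. The highest Pearson r, given as a description over 6 arrays that share the strain difference, were 0.996 for Phgdh, the first enzyme of serine synthesis, and 0.992 for the riboflavin transporter gene Slc52a3. Snhg10, Arid5b and Prrt4 followed at 0.964, 0.963 and 0.962. The lowest were -0.986 for the ubiquitin ligase gene Marchf8, -0.985 for Tceanc2 and -0.980 for the SOX factor gene Sox5. After each strain's mean was taken out, r was 0.98 for Phgdh, 0.95 for Slc52a3, 0.90 for Snhg10, 0.85 for Arid5b and 0.94 for Prrt4. For Marchf8, Tceanc2 and Sox5 it was then -0.91, -0.94 and -0.86. These genes were picked by their r over the same 6 arrays, so the values are no separate check. Phgdh read 8.49, 8.34 and 8.29 in B6.C3H-6T, against 8.08, 8.13 and 8.06 in C57BL/6J. As for Foxa2, the B6.C3H-6T mice stood in the order 1, 2, 3 from the highest, and replicate 2 was the highest C57BL/6J mouse. Prrt4, Marchf8 and Sox5 lie on chromosome 6.

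The other genes of the network were described by 8 lists written from general knowledge, with 83 measured genes, 6 of them on more than 1 list. None of the 83 passed over all genes in limma, so the counts below are at an unadjusted p under 0.05, with 6.34% of all genes higher and 5.80% lower at that level. Of 16 other liver-enriched transcription factors, 12 were lower and 4 higher, 5 lower and 0 higher at that level, with a median of -0.10. For each of those 5 genes B6.C3H-6T replicate 2 was the lowest of all mice, and the part of that mouse in the count was not tested. The mean of this list per mouse was 9.77, 9.51 and 9.72 in B6.C3H-6T, against 9.81, 9.88 and 9.73 in C57BL/6J. The T-box gene Tbx3 differed by -0.52 ± 0.16, the fasting-response gene Creb3l3 by -0.38 ± 0.12, the fatty acid receptor gene Ppara by -0.43 ± 0.15 and the xenobiotic receptor gene Nr1i3 by -0.21 ± 0.08. Ppara read 11.19, 10.50 and 10.96 in B6.C3H-6T, against 11.29, 11.42 and 11.25 in C57BL/6J, with replicate 2 again the lowest. Hnf4a, the central nuclear receptor of the hepatocyte programme and added here after its value was seen, differed by 0.02.

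Of 17 other forkhead genes, 11 were higher and 6 lower, with 4 higher and 0 lower at an unadjusted p under 0.05 and a median of 0.02, the same as over all genes. Foxo3 differed by 0.36 ± 0.09 and Foxo1 by 0.21 ± 0.09, both targets of insulin signalling through AKT, Foxn3 by 0.24 ± 0.09 and Foxq1 by 0.50 ± 0.22. Foxq1 read 9.25, 8.46 and 8.22 in B6.C3H-6T, against 8.16, 8.12 and 8.15 in C57BL/6J, with 1 mouse well above the other 5. Of 6 other C/EBP genes and partners, 3 were higher and 3 lower, 0 passed that level in limma, and the median was 0.01. Cebpd differed by 0.22 ± 0.11, the pseudokinase gene Trib3 by 0.16 ± 0.14, Cebpg by -0.04 ± 0.07 and the stress gene Ddit3 by 0.02 ± 0.06.

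Among genes known as hepatic targets of FOXA proteins, 8 of 13 were higher and 5 lower, with 3 higher and 0 lower at that level and a median of 0.08. Tat, the tyrosine aminotransferase gene whose enhancer is a classic FOXA site, read 12.81, 13.17 and 13.00 in B6.C3H-6T, against 12.63, 12.50 and 12.59 in C57BL/6J. The groups did not overlap, and the difference was 0.42 ± 0.09 (limma adjusted p = 0.216). The tryptophan dioxygenase gene Tdo2 differed by 0.31 ± 0.11, the bile acid uptake gene Slc10a1 by 0.18 ± 0.08 and the bile salt export gene Abcb11 by 0.15 ± 0.07. Targets of C/EBP alpha were higher in 9 of 9 cases, 3 at that level, with a median of 0.13, against 56.1% of all genes higher at any p. Besides Tat these were led by the urea cycle gene Cps1 (0.26 ± 0.06), the hepcidin gene Hamp (0.31 ± 0.11) and the glucose-6-phosphatase gene G6pc (0.24 ± 0.11). The mean of this list per mouse was 12.60, 12.63 and 12.52 in B6.C3H-6T, against 12.41, 12.40 and 12.36 in C57BL/6J. Cebpa itself differed by 0.05 ± 0.08, and its part in these values was not tested. Alb, Pck1, G6pc and Tat are on the list of FOXA targets too.

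Acute phase targets of C/EBP beta were higher in 8 of 10 cases, 1 at that level, with a median of 0.06. That gene, Orm2, of the orosomucoid plasma proteins, read 8.32, 8.61 and 8.68 in B6.C3H-6T, against 8.11, 8.11 and 7.94 in C57BL/6J (0.49 ± 0.10, limma adjusted p = 0.196). Orm1 differed by 0.13 ± 0.07, Saa1 by 0.25 ± 0.23 and Apcs by -0.19 ± 0.15. Targets of ONECUT1 and PROX1 were higher in 6 of 7 cases, 2 at that level, with a median of 0.24. They were the glucose transporter gene Slc2a2 (0.24 ± 0.10) and the bile acid gene Cyp8b1 (0.27 ± 0.12), and both overlapped between the strains. Cyp7a1, the rate-limiting enzyme of bile acid synthesis, differed by 0.36 ± 0.25 and overlapped as well. Of 12 genes of insulin and glucagon signalling and FOXA coactivators, 3 were higher and 9 lower, with 2 higher and 0 lower at that level and a median of -0.05. Srebf1, the lipogenic factor gene, read 10.95, 12.03 and 10.86 in B6.C3H-6T, against 10.86, 10.48 and 10.38 in C57BL/6J, with 1 mouse well above the rest (0.70 ± 0.28). The coactivator gene Ppargc1a differed by 0.23 ± 0.09, Irs2 by -0.19 ± 0.09 and Irs1 by -0.32 ± 0.21.

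**Figure D4:**
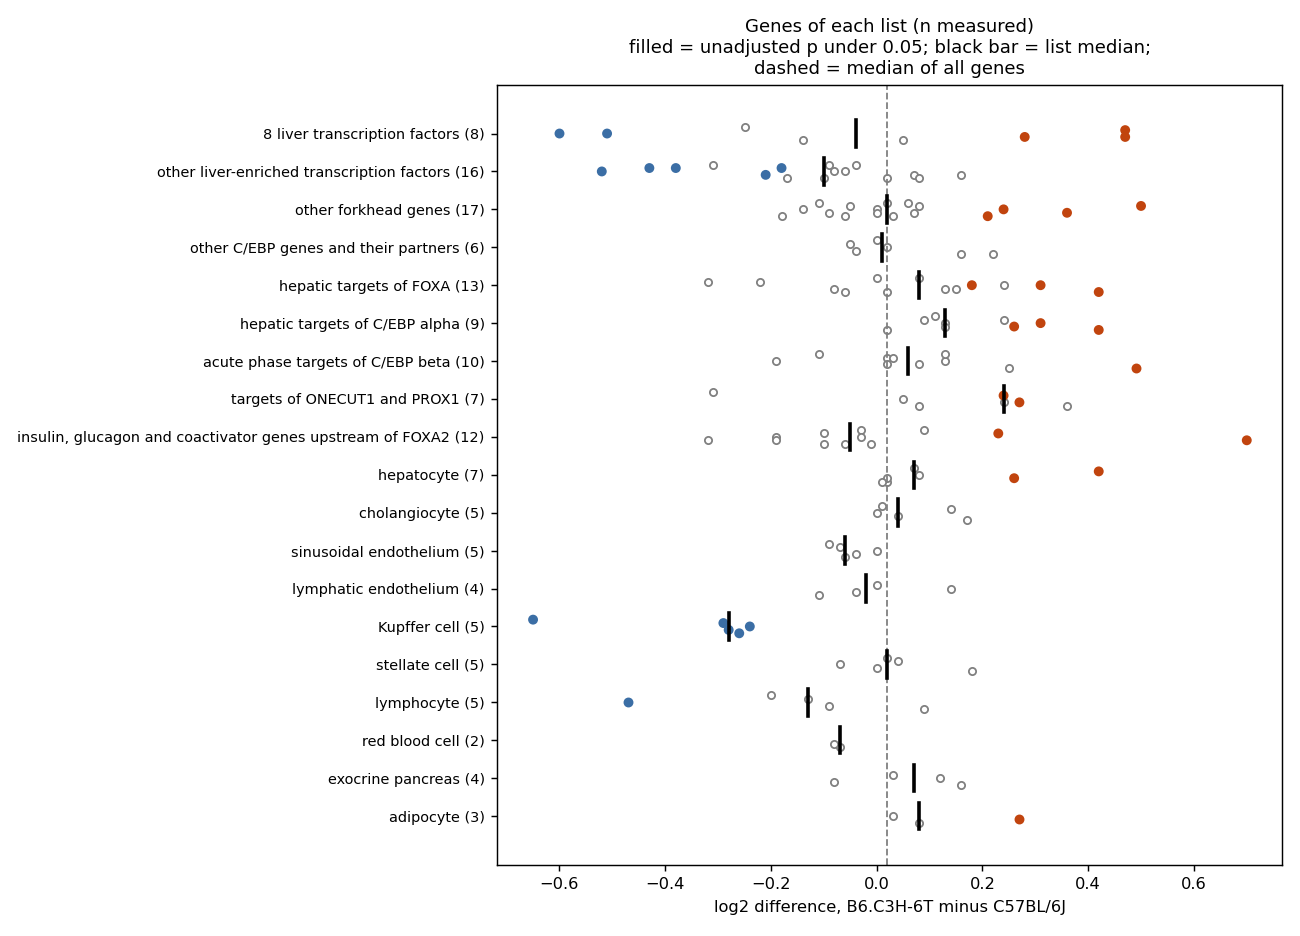
Log2 difference (B6.C3H-6T minus C57BL/6J) of each measured gene by list, filled at an unadjusted p under 0.05, with the list median as a black bar and the median of all genes, 0.02, as a dashed line. The 8 liver transcription factors spread to both sides, from -0.60 to 0.47, and the 5 Kupffer cell markers all lie below -0.20.

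Markers of the cells that a piece of liver holds were read beside these values. All 7 hepatocyte markers were measured and higher, 2 at an unadjusted p under 0.05 in limma (Tat and Cps1). Cyp2e1, Alb and Apoa1 differed by only 0.01, 0.02 and 0.02. Alb, Ttr, Tat and Cps1 are also on the target lists above, so the lists are not separate readings. The summed level of the 7 on the log2 scale was 16.66 to 16.70 in B6.C3H-6T and 16.55 to 16.65 in C57BL/6J, the brightest of the marker lists, as the liver label calls for. Cholangiocyte markers, relevant to Onecut1 because bile duct cells express it, were higher in 5 of 5 cases, 0 at that level in limma. Krt19 differed by 0.17 and Sox9 by 0.14, but Krt7 by only 0.04, Cftr by 0.01 and Epcam, the brightest, by 0.00. The summed levels were 9.18 to 9.25 in B6.C3H-6T and 9.07 to 9.25 in C57BL/6J. Krt7 and Cftr were dim, with means of 4.73 and 3.88 in B6.C3H-6T and 4.69 and 3.87 in C57BL/6J. Lymphatic endothelial markers, relevant to Prox1, were higher in 2 and lower in 2 of 4 cases, 0 at that level, with summed levels of 9.43 to 9.68 in B6.C3H-6T and 9.56 to 9.65 in C57BL/6J. All 5 Kupffer cell markers were lower at that level, with summed levels of 11.94 to 12.22 in B6.C3H-6T and 12.29 to 12.56 in C57BL/6J that did not overlap. Lymphocyte markers were lower in 4 of 5 cases, 1 at that level, the pan-leukocyte gene Ptprc (-0.47 ± 0.11). The part of these cell types in the results above was not tested. Sinusoidal endothelial, stellate, red blood cell, exocrine pancreas and adipocyte markers had medians from -0.07 to 0.08, with 1 of their genes, Fabp4 of adipocytes, at an unadjusted p under 0.05 in limma.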

How the data were processed

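Liver RNA of 6 mice was measured on Affymetrix arrays, 1 mouse each. The authors deposited log2 expression values per probe set, for which the submitters' processing notes name RMA and the affy package, after image quantification with GCOS 1.2 per the labels; other steps and versions are not given in the sources used here. Oligo(dT) priming, per the labels' protocols, favours the 3′ end of transcripts, and a strain difference in sequence under a probe can alter its signal.

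Of 45101 probe sets, 64 controls were left out. Through the platform annotation, with symbols updated by gene identifier to RefSeq (GRCm38.p6), 34945 of the other 45037 had 1 gene, 932 several and 9160 none, which gave 18194 genes, 18032 of them found in the gene table. Each gene was read at its probe set of highest mean over all arrays. One linear model per probe set, with strain as its only term and no filter, was fitted by limma 3.58.1 under R 4.3.3 with moderated variances, and p-values were adjusted by Benjamini-Hochberg over all genes. A positive difference means a higher level in B6.C3H-6T. Single values were also compared by two-sided exact permutation tests, which with 3 against 3 cannot go below p = 0.1. The fit was checked on simulated data. Replicate numbers follow accession order and pair no mice. The submitters call the mice biological replicates.

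The text names all 8 members, up to 4 genes of each list, those of smallest p, and the 5 genes with the highest and 3 with the lowest r with Foxa2; markers were named where the text needed them. The members and lists were chosen with earlier results of these data known. Some genes of the lists are not reported here, and counts are over the genes measured. Alternatives were each array left out, centring, quantile normalization, a filter on dim probe sets, other probe set choices and other variance estimates.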

Additional observations from a re-analysis of the deposited data

How the results depend on the processing

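No member passed at an adjusted p under 0.05 in limma under any of the 13 alternatives, where the lowest adjusted p was 0.121 for Foxa2. Foxa2, Foxa3, Onecut1, Onecut2, Cebpb and Prox1 kept their direction in all 13. Foxa1 ran from -0.26 to 0.08 without 1 array, and Cebpa from -0.02 to 0.09, with -0.01 without B6.C3H-6T replicate 2. The 5 members at an unadjusted p under 0.05 became 3 to 5 without 1 array (3, Foxa2, Foxa3 and Onecut1, without B6.C3H-6T replicate 2), a count added after seeing the data, and 1, Foxa2, without moderated variances. With trended and robust variances there were 6, Onecut2 being added, and with the mean of all probe sets 4, Cebpb being lost. Centring left 5, with Onecut2 in place of Cebpb. Genes called numbered 6 to 15 without 1 array in place of 13, with 6 without C57BL/6J replicate 2 or 3 and 7 without B6.C3H-6T replicate 2, and probe sets 11 to 17 in place of 26. Without moderated variances 0 genes and 0 probe sets were called by the linear fit in limma, where 1746 and 3841 had an unadjusted p under 0.05; the cause was not tested. Centring moved the median of all genes by -0.026. No paired analysis was possible because the labels give the mice no numbers shared between the strains. Dim probe sets such as the second of Onecut1, and 3 mice per strain, limit what could be detected.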
